A study of Homo sapiens with 6 samples.

Results

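The H3K27ac peaks described here lie outside the assembled chromosomes of hg19, on its alternate haplotypes, on contigs assigned to a chromosome but not positioned in it (random), and on unplaced contigs (chrUn). They were chosen by sequence name alone, as every deposited peak whose sequence name contains gl0, hap, random or Un. They number 20491 of 1440888 deposited peaks over the 6 lists, and the remainder comprises 1415219 peaks on chromosomes 1 to 22 and X and 5178 on Y and the mitochondrial sequence. The cells are CCRF-CEM, a long-established line of human leukemic T lymphoblasts. SLFN11 knockout cells received 100 nM camptothecin, a topoisomerase 1 inhibitor, for 2 h or 4 h, or the vehicle DMSO, and wild-type parental cells were treated in the same way, with 1 library in each of the 6 groups. The times are those of the titles and treatment labels, and the protocol text shared by all samples names 4 h alone. The labels do not say whether the knockout is 1 clone or a pool, and how reads with several equally good positions were treated is not given in the sources used here.

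H3K27ac is acetylation of a histone H3 lysine found at active promoters and enhancers. An alternate haplotype is a second version of a stretch that the primary chromosomes also contain, so its sequence resembles a place on a chromosome. The haplotypes of chromosome 6 are versions of the major histocompatibility complex, the gene-dense region that carries the antigen-presenting genes. The chromosome 17 haplotype is a version of a region known for a large inversion. Random and unplaced contigs are pieces, often rich in repeats, that could not be put in order, and chrUn_gl000220 is known to carry copies of the ribosomal RNA repeat. SLFN11 is a Schlafen family protein that sensitises cells to agents that stall replication. Genes were not placed on these sequences, so neither the knockout nor the cell type was checked against marker genes here.

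The library labelled knockout 4 h stood apart before any comparison. Its list held 410176 peaks, against 174843 to 271785 in the other 5, and 50.6% of its peaks on contigs and haplotypes had the smallest width of 200 bp, against 18.4 to 21.9% in the others. Its median fold was 1.71 both on contigs and haplotypes and on the chromosomes. Read depth is unknown, since the lists hold peaks and no read counts. Peaks ranked by p within each library were therefore compared among the 30000 with the smallest p over all sequences, called the strongest peaks here.

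The haplotypes held most of these peaks. In the knockout, 3464 peaks lay on contigs and haplotypes in the control, 2920 after 2 h and 5999 after 4 h. In parental cells there were 2530 in the control, 2752 after 2 h and 2826 after 4 h. Of the 20491 peaks, 15404 lay on haplotypes, 1958 on random contigs and 3129 on unplaced contigs. The 7 haplotypes of chromosome 6 alone held 13720, which is 67.0%. Peaks were found on 68 sequences, 62 of them in all 6 libraries, comprising 9 haplotypes, 20 random and 39 unplaced contigs.

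As a share of each list, contigs and haplotypes took 1.27% in knockout control (Wilson 95% interval 1.23 to 1.32%), 1.32% in knockout 2 h (1.27 to 1.36%) and 1.46% in knockout 4 h (1.43 to 1.50%). The share was 1.45% in parental control (1.39 to 1.50%), 1.52% in parental 2 h (1.47 to 1.58%) and 1.56% in parental 4 h (1.50 to 1.61%). The intervals cover counting error over peaks only. At each time the knockout share was the lower one. Taking the 3 times as pairs, a comparison added after the data were seen, the knockout averaged 1.35% and parental cells 1.51%, a difference of -0.157 points (SD 0.0575, n = 3 pairs). The exact two-sided sign-flip p was 0.25, the smallest that 3 pairs allow. Among the strongest peaks the share was larger, at 2.57%, 2.67% and 2.26% in knockout control, 2 h and 4 h, and at 2.74%, 2.69% and 2.76% in parental control, 2 h and 4 h. The 3 parental values lay between 2.69 and 2.76%, and knockout 4 h was the lowest of the 6. With 1 library per group these differences have no replicate check.

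Peak density differed between sequences. The span of a sequence was taken from its start to the end of its last peak in any library. Per megabase of span, the mean number of peaks was 37.1 on chr6_apd_hap1 and 87.7 on chr6_cox_hap2, the least and the most dense of the chromosome 6 haplotypes. It was 26.7 on chr4_ctg9_hap1 and 157.9 on chr17_ctg5_hap1, against 77.7 over chromosomes 1 to 22 and X. Several contigs had higher densities with hardly any strong peak. On chr4_gl000194_random the mean density was 202.3 peaks per megabase, yet a mean of 1.33 peaks per library were among the strongest. By contrast chrUn_gl000220 had 184.5 peaks per megabase and a mean of 15.0 strongest peaks per library. Only 17 of the 68 sequences had a peak among the 5000 smallest p of any library, 16 of them in all 6 libraries, and the exception, chr19_gl000209_random, lacked one in knockout 4 h.

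A larger share of contig and haplotype peaks than of chromosome peaks was among the strongest in every library. The mean over the libraries was 25.3% of these peaks, against 13.5% of the peaks on chromosomes 1 to 22 and X. The difference was 11.8 percentage points (SD 4.05, n = 6 libraries) and had the same sign in 6 of 6 libraries. The exact two-sided sign-flip permutation test gave p = 0.0312, the smallest that 6 libraries allow, and 0.0625 after Benjamini-Hochberg adjustment over 4 tests, so it did not pass 0.05. In knockout control, 2 h and 4 h the shares on contigs and haplotypes were 22.2%, 27.4% and 11.3%, against 10.9%, 13.3% and 7.24% on the chromosomes. In parental control, 2 h and 4 h they were 32.5%, 29.3% and 29.3%, against 16.9%, 16.4% and 16.3%. The libraries differ in genotype and treatment, so the test covers a within-library difference and not the spread between replicates.

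Haplotypes and the other classes differed in this share. By class, the gap to the chromosomes was 15.7 points for haplotypes (6 of 6 libraries higher), 0.80 points for random contigs and 0.77 points for unplaced contigs. The exact sign-flip p was 0.0312 for haplotypes, 0.219 for random and 0.344 for unplaced contigs. Adjusted over the 12 class tests these were 0.0938, 0.292 and 0.412, so none passed 0.05. The haplotypes had 26.1%, 31.7% and 12.6% of their peaks among the strongest in knockout control, 2 h and 4 h, and 38.2%, 32.8% and 33.6% in parental control, 2 h and 4 h. Chromosome 6 itself has a high share over the matching interval, from 28747915 to 33423060, with 41.1% in parental control.

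**Figure D1:**
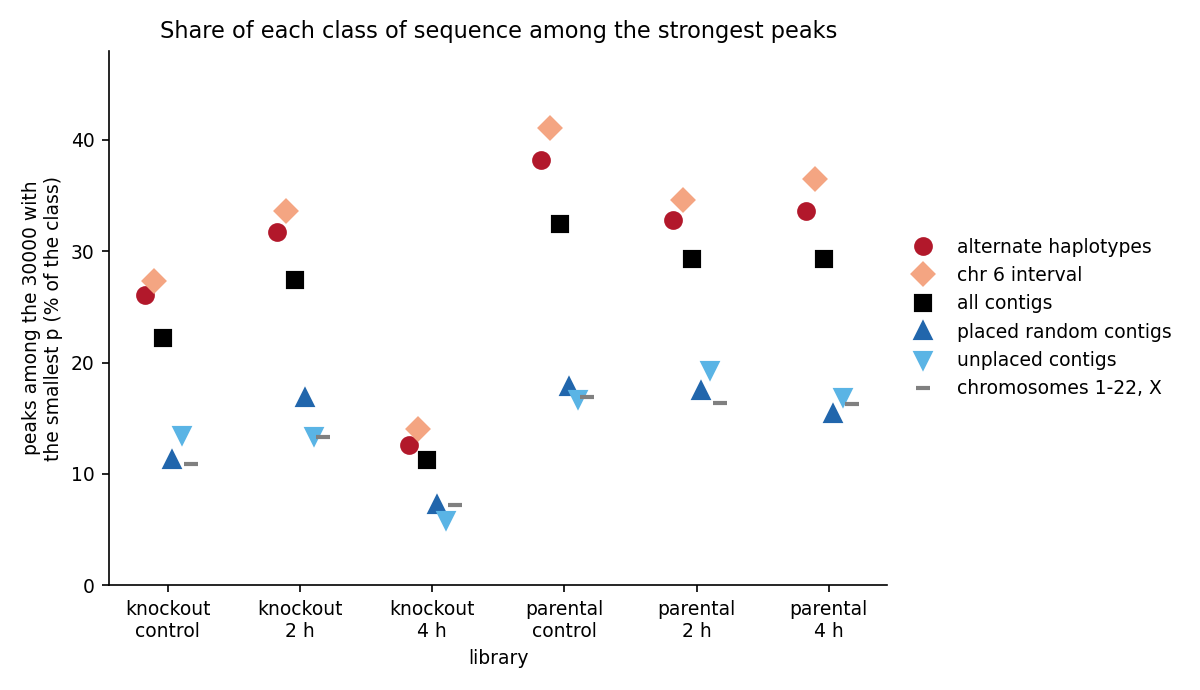
Percent of the peaks of each class that are among the 30000 with the smallest p (vertical axis), by library (horizontal axis), with 1 point per class and library. Haplotypes sit beside the chromosome 6 interval in all 6 libraries, and random and unplaced contigs sit beside chromosomes 1 to 22 and X.

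Width and fold differed in how far they depended on the list. Contig and haplotype peaks had a median width of 577 bp on average over the libraries, against 398 bp on the chromosomes, a difference of 179 bp (SD 90.3, n = 6, wider in 5 and tied in 1, exact sign-flip p = 0.0625). Their median fold averaged 2.16, against 2.06, a difference of 0.09 (SD 0.05, n = 6, higher in 5 and tied in 1, exact sign-flip p = 0.0625). The fold difference changed sign with the list. Among the strongest peaks it was -0.07 (exact sign-flip p = 0.125), and among peaks with a −log10 q of at least 5 it was -0.45 with a lower fold in 6 of 6 libraries (exact sign-flip p = 0.0312). In that last set the median fold on contigs and haplotypes was 4.76, 4.61 and 5.02 in knockout control, 2 h and 4 h, against 5.14, 5.13 and 5.37 on the chromosomes. In parental control, 2 h and 4 h it was 4.82, 4.84 and 4.80, against 5.16, 5.40 and 5.33. Among the strongest peaks the width difference was 275 bp, wider in 6 of 6 libraries (exact sign-flip p = 0.0312).

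Haplotype peaks were set beside the chromosome 6 interval that they version. In knockout control, 2 h and 4 h, 27.8%, 33.7% and 13.2% of the peaks on the 7 chromosome 6 haplotypes were among the strongest, against 27.4%, 33.6% and 14.1% of those in the interval. In parental control, 2 h and 4 h the shares were 40.7%, 34.9% and 35.9%, against 41.1%, 34.6% and 36.5%. The mean difference was -0.16 points (SD 0.52, n = 6 libraries, higher in 3 of 6, exact sign-flip p = 0.469), and single libraries ranged from -0.88 to 0.48 points. The median fold of all peaks differed by -0.01 on average (SD 0.03, exact sign-flip p = 0.688). A p that misses the threshold does not show equality, but these ranges bound the differences seen.

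Individual peaks also had counterparts. For each haplotype, 1 distance to chromosome 6 peaks led in each library. It was about 28487 kb for chr6_cox_hap2, 28620 kb for chr6_mcf_hap5 and 28685 kb for chr6_apd_hap1 in every library. In chr6_cox_hap2, 24 to 38 pairs shared that 1 kb bin of distance, against 11 to 15 in the commonest bin more than 200000 bp away. The lead was smaller elsewhere, as on chr6_apd_hap1 in knockout 4 h, with 12 pairs for 43 strongest peaks, against 6 pairs. The leading bin moved between libraries on chr6_dbb_hap3 (28714 or 28706 kb), chr6_qbl_hap6 (28706 or 28707 kb) and chr6_ssto_hap7 (28669 or 28667 kb). Pairs were then followed in order along each haplotype, with shifts allowed up to 200000 bp from the leading offset. This paired 79.6 to 87.8% of the haplotypes' strongest peaks with a strongest peak on chromosome 6, depending on the library. Seen from chromosome 6, 93.2 to 98.3% of the interval's strongest peaks had at least 1 such haplotype copy. The interval ran from the first to the last paired chromosome 6 peak over all libraries, so its ends were set by the pairs. In parental control, 98 of 115 interval peaks had 4 or more copies and 20 had all 7.

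Paired peaks had nearly the same fold. The median absolute difference in fold between a haplotype peak and its chromosome 6 counterpart was 0.15, 0.16 and 0.12 in knockout control, 2 h and 4 h, over 517, 548 and 452 pairs. It was 0.16, 0.17 and 0.17 in parental control, 2 h and 4 h, over 577, 539 and 572 pairs. For scale, the same interval peak differed between 2 libraries by a median of 0.20 to 0.29 over the 10 pairs of libraries without knockout 4 h. Copies resemble each other in sequence, and the assignment of reads among them is not given in the sources used here, so copies are not independent measurements of 1 site.

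**Figure D2:**
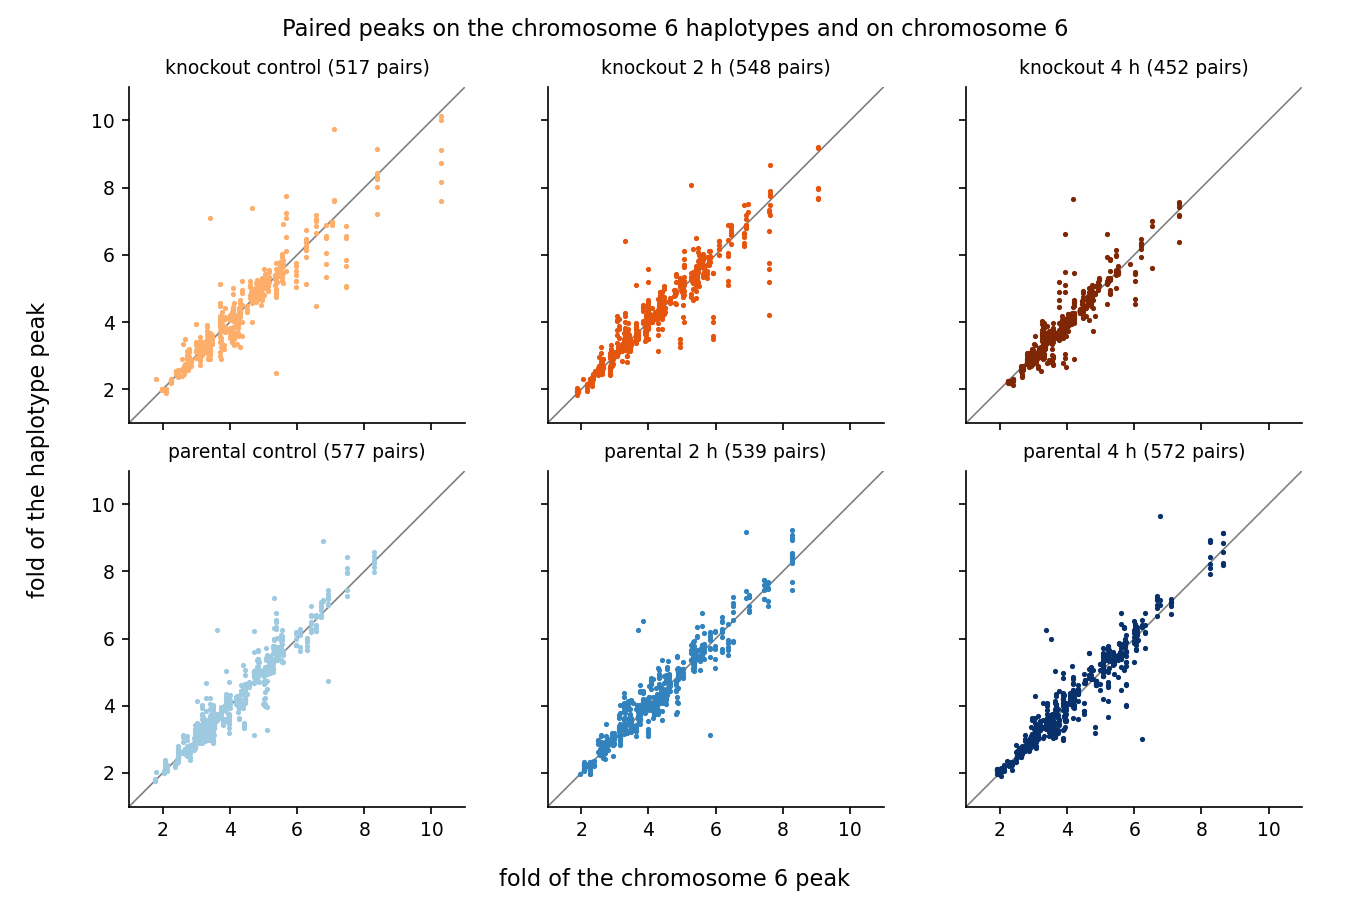
Fold of each paired haplotype peak (vertical axis) against the fold of its chromosome 6 counterpart (horizontal axis), with 1 panel per library and 1 point per pair. The grey line marks equal fold; most of the 452 to 577 points of a panel lie along it, and a few lie several units away.

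Single sites showed the repetition. The chromosome 6 peak from 30614676 to 30615834 had folds of 7.03, 6.90 and 6.20 in knockout control, 2 h and 4 h, and of 6.70, 6.99 and 7.10 in parental control, 2 h and 4 h. Its copy on chr6_cox_hap2, from 2126711 to 2127882, had 6.98, 6.90 and 6.27 in the knockout and 6.65, 6.86 and 6.98 in parental cells. All 6 haplotypes with a copy of it had folds between 5.92 and 7.28. A second site, chromosome 6 from 31762506 to 31764129, had folds of 4.94 to 5.50, and its copies on 5 haplotypes had folds of 4.99 to 5.68. Knockout 4 h had the lowest fold of the 6 libraries at the first site, on chromosome 6 and on every copy. At the second site it had the highest, at 5.50 on chromosome 6 and again on every copy.

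The chromosome 17 haplotype gave no offset that led in all libraries. No distance between chr17_ctg5_hap1 and chromosome 17 held more pairs of strongest peaks than the next one in any library when both ran the same way, with 5 to 8 pairs at each. With the haplotype turned round, one place led in knockout control with 9 pairs, against 7 at the next, and another place led in knockout 4 h with 6 pairs, against 5. The place that led in knockout control also held the highest number in knockout 2 h and in parental control, with 8 pairs in each and a tie in both. It held 3 pairs in knockout 4 h and 5 each in parental 2 h and 4 h. Its peaks are therefore described only as they stand.

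Among the 10 regions with the best mean rank, 2 lay on chromosome 6 haplotypes, while among the best 60 these held 41. Overlapping contig and haplotype peaks of all libraries were merged into 8034 regions, and these were ranked by the mean rank of their strongest peak in the 6 lists. The leading region, chr7_gl000195_random from 137796 to 138668, held rank 48 in knockout control, 22 in knockout 2 h and 58 in knockout 4 h, and 57, 56 and 12 in parental control, 2 h and 4 h. Its fold was 9.53, 9.45 and 9.80 in the knockout and 10.2, 10.0 and 10.8 in parental cells. The 3 knockout values lay below the 3 parental ones. With ranks from 12 to 58 it was among the strongest peaks of every list.

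A second region of the same contig, from 86040 to 86888, had folds of 9.57, 9.43 and 7.83 in knockout control, 2 h and 4 h, and of 9.47, 10.0 and 9.64 in parental control, 2 h and 4 h. Here the groups overlapped, and knockout 4 h was the lowest. On chr1_gl000191_random, the region from 28439 to 30139 had folds of 6.94, 7.04 and 6.41 in the knockout, against 6.96, 7.32 and 7.24 in parental cells. On chr17_gl000205_random, the region from 33617 to 34593 had folds of 8.73, 8.45 and 8.06 in the knockout, against 9.79, 9.59 and 9.40 in parental cells. Every parental value exceeded every knockout value in the last region. The set was picked by mean rank and not by genotype, and a list of 10 regions gets no test.

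Of the other 6 leading regions, 3 lay on chr17_ctg5_hap1, 1 each on chr6_ssto_hap7 and chr6_qbl_hap6, and 1 on chrUn_gl000220. The chr17_ctg5_hap1 regions from 1524410 to 1525533 and from 379931 to 381055 had folds of 7.31, 7.55 and 6.78, and of 7.28, 7.62 and 6.77, in knockout control, 2 h and 4 h. In parental control, 2 h and 4 h they had 7.66, 8.11 and 7.75, and 7.77, 8.03 and 7.76. The pair of places on 1 haplotype thus had close values in every library, the widest gap being that in parental control, and whether they share sequence was not tested.

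**Figure D3:**
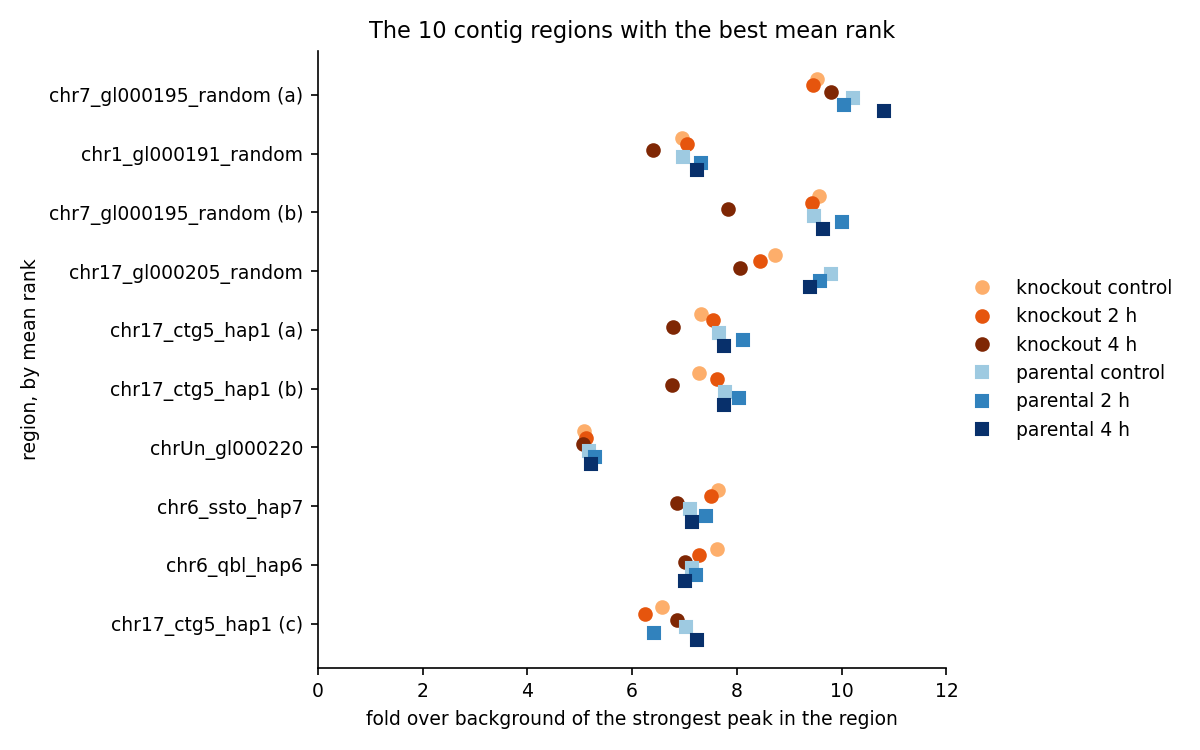
Fold of the strongest peak (horizontal axis) in the 10 contig and haplotype regions with the best mean rank (vertical axis, best at the top), with 1 point per library; letters mark several regions of 1 sequence. The leading chr7_gl000195_random region lies between 9.45 and 10.8 in all libraries, and the chrUn_gl000220 region between 5.05 and 5.29.

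The ribosomal repeat contig had some narrow regions of high fold, and both narrow and broad regions of low fold. The region from 139125 to 139536, for example, was 412 bp wide with folds of 1.79 to 2.03. Widths are those of regions merged over the 6 libraries, not of single peaks. On chrUn_gl000220, the region from 6631 to 8405 had folds of 5.07, 5.12 and 5.05 in knockout control, 2 h and 4 h, and of 5.18, 5.29 and 5.21 in parental control, 2 h and 4 h. It ranked 175, 108 and 395 in the knockout, against 513, 523 and 544 in parental cells, so its rank was better in each knockout library while its fold was slightly lower. A rank is a place in a list of a given depth, and ranks from lists of different length show no change.

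A narrower region, from 54884 to 55681, had folds of 5.08, 4.83 and 3.68 in knockout control, 2 h and 4 h, and of 6.21, 5.46 and 5.68 in parental control, 2 h and 4 h. There every knockout value lay below every parental one, and the region was picked after its values were seen.

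Elsewhere on that contig, the region from 101584 to 107752 was 6169 bp wide with folds of 1.84, 1.98 and 2.05 in the knockout and of 2.13, 1.69 and 1.95 in parental cells. The region from 117300 to 126617 was 9318 bp wide, with folds of 1.61, 1.65 and 1.801 in the knockout, against 1.71, 1.70 and 1.76 in parental cells. These folds overlapped between genotypes and were low although their p placed some of them among the strongest peaks. In all, peaks covered 33.1%, 31.1% and 28.1% of the contig's span in knockout control, 2 h and 4 h, and 27.7%, 28.8% and 28.9% in parental control, 2 h and 4 h.

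Other sequences were led by 1 region each. On chr4_ctg9_hap1, which had 6 to 47 peaks per library, 1 region from 44990 to 45940 had folds of 8.86, 9.05 and 6.49 in knockout control, 2 h and 4 h, and of 8.26, 8.91 and 8.07 in parental control, 2 h and 4 h. On chrUn_gl000223 the region from 67979 to 68998 had folds of 8.17, 8.28 and 8.08 in the knockout, against 8.41, 7.99 and 8.82 in parental cells. The contig held further strong regions, from 24724 to 26083 with folds of 5.45 to 6.89 and from 149011 to 150802 with folds of 4.92 to 6.41. The best region of chrUn_gl000219, from 98994 to 100431, had 6.22, 6.35 and 5.58, against 6.06, 6.17 and 6.09. The genotypes overlapped in each of these leading regions.

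Recurrence of contig and haplotype peaks across libraries went with their rank. Of the 8034 merged regions, 4361 (54.3%) came from 1 library only and 1297 (16.1%) from all 6. Among the strongest peaks, a mean of 81.0% of those on contigs and haplotypes overlapped one in another library by at least 1 bp, against 69.7% on the chromosomes, over 30 ordered pairs of libraries. Without knockout 4 h the means were 85.0% and 74.6%, over 20 pairs. In the ranks from 1 to 5000, 100.0% were shared on contigs and haplotypes in every such pair, against at least 99.98% on the chromosomes. In the ranks from 15001 to 30000, the mean was 61.7% on contigs and haplotypes and 50.7% on the chromosomes, also without knockout 4 h. Contigs and haplotypes were higher in 30 of 30 ordered pairs, which share libraries and are not independent. The haplotypes alone averaged 84.2% over the 30 ordered pairs, above the pooled 81.0%. Random and unplaced contigs were therefore below the pooled share. Their own share was not computed for every pair. In knockout control against knockout 2 h, 88.2% of 770 pooled and 92.6% of 645 haplotype peaks were shared, against 78.5% on the chromosomes. There the random and unplaced contigs were below the chromosomes. In knockout 4 h against knockout control the values were 78.6% of 677, 80.7% of 596 and 60.4%, which puts them above. The lead over the chromosomes thus did not hold for them in every pair.

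Camptothecin was examined in 10 kb windows, marked where a strongest peak covered at least 1 bp. In parental cells, 118 contig and haplotype windows were gained and 117 lost after 2 h, which is 27.01% of the windows marked in either library, against 40.1% over all sequences (20.5% gained and 19.7% lost). After 4 h, 102 were gained and 90 lost, or 22.5%, against 37.3% (18.8% gained and 18.5% lost). In the knockout, 102 were gained and 72 lost after 2 h, or 21.3%, against 32.7% (16.0% gained and 16.7% lost). After 4 h, 132 were gained and 177 lost, or 36.5%, against 53.2% (27.5% gained and 25.7% lost), in the library that stands apart. The share on contigs and haplotypes was below the background in each of these pairs of libraries. Whether gains or losses were more frequent depended on the list. Over all sequences, gains and losses were not counted apart for the other lists, so the percent gained or lost is given beside each count. With all deposited peaks, knockout 4 h had 957 gained and 84 lost against its control (32.8%, against 35.0% over all sequences). Among peaks of −log10 q 5 or more it had 1 gained and 267 lost (55.8%, against 63.4%). Knockout 2 h had 225 gained and 441 lost with all deposited peaks (27.3%, against 34.1%). It kept more gains among peaks of −log10 q 5 or more, with 32 gained and 15 lost (9.20%, against 14.5%). Parental 2 h and 4 h had 440 gained and 270 lost, and 413 gained and 268 lost, with all deposited peaks. Among peaks of −log10 q 5 or more, parental 2 h had 28 gained and 51 lost (15.4%, against 18.2%). Parental 4 h had 28 gained and 46 lost there (14.5%, against 16.7%).

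Haplotypes and the other contigs differed in this. In parental cells after 2 h, 23.6% of haplotype windows were gained or lost (Wilson 95% interval 20.6 to 26.8%), against 43.6% of windows on random and unplaced contigs (35.9 to 51.6%). After 4 h the shares were 18.8% and 41.9%. In the knockout they were 18.1% and 37.2% after 2 h, and 31.7% and 60.6% after 4 h. In all 4 comparisons the background lay inside the interval of the random and unplaced contigs and above that of the haplotypes. These intervals cover counting error over windows only and are no test. Several haplotype windows can hold copies of the same site, so they are not independent and the haplotype intervals are likely too narrow. The number of separate sites among them was not counted. The 2 treated libraries of a genotype share their control.

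Between genotypes, 67 windows were gained and 105 lost in knockout control against parental control, or 21.0%, with a background of 35.9% (17.8% gained and 18.0% lost). At 2 h, 107 were gained and 116 lost, or 25.9%, with a background of 40.2% (19.3% gained and 21.0% lost). At 4 h, 127 were gained and 222 lost, or 39.2%, with a background of 53.2% (27.2% gained and 25.9% lost). Losses exceeded gains in each with the strongest peaks, but this direction depended on the list. With all deposited peaks there were 593 gained and 160 lost between the controls (31.7%, against 39.9% over all sequences). There were 364 and 317 at 2 h (29.4%, against 36.8%), and 1217 and 56 at 4 h (40.5%, against 48.6%). At 2 h, gains also exceeded losses among peaks of −log10 q 5 or more (54 against 19) and with at least 500 bp covered (72 against 64). Between the controls the haplotypes lost 81 windows and gained 37, and the random and unplaced contigs lost 24 and gained 30.

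**Figure D4:**
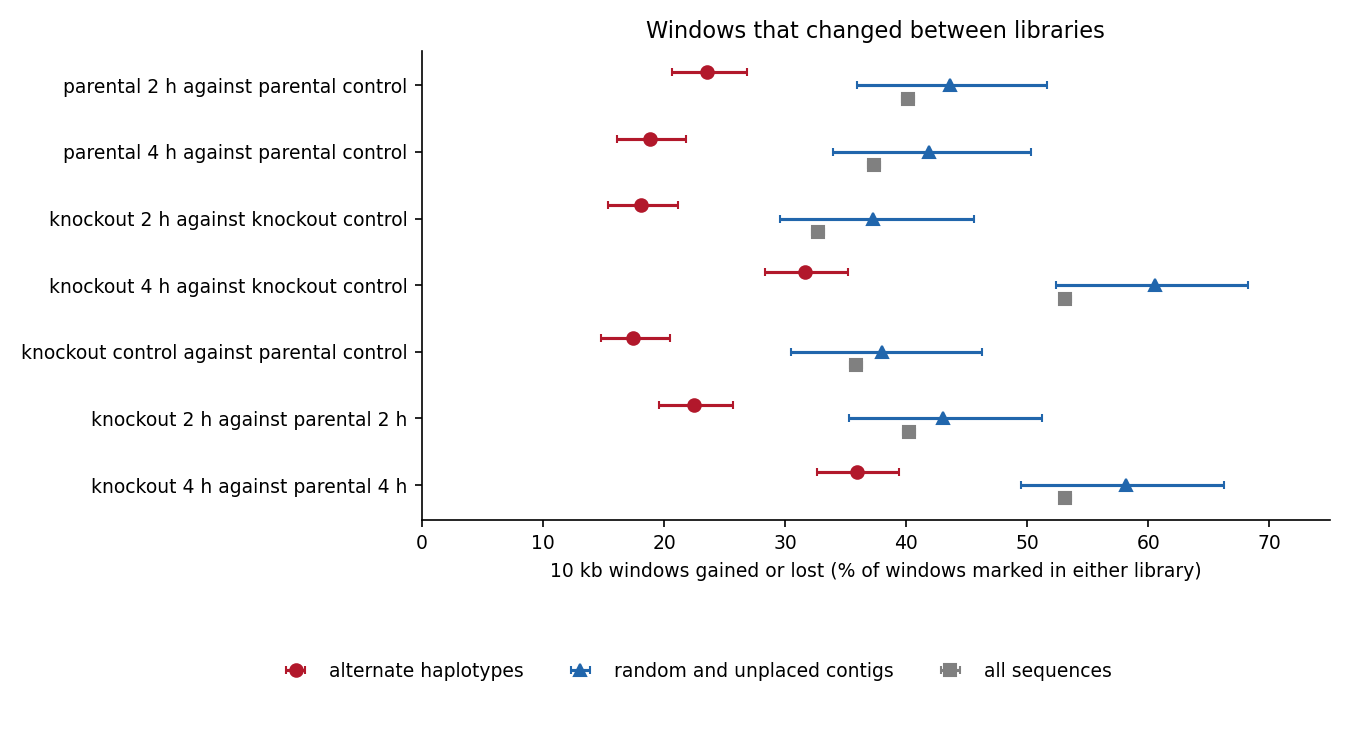
Percent of 10 kb windows gained or lost (horizontal axis) in each of 7 comparisons (vertical axis), for haplotypes, for random and unplaced contigs and for all sequences, with Wilson 95% intervals that cover counting error only. Haplotypes lie between 17.4 and 36.0%, left of all sequences in all 7 comparisons. Copies of a site on several haplotypes enter as separate windows, so the haplotype intervals are likely too narrow.

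The largest changes in covered length came with deposited peaks in both libraries. In each of the 7 comparisons the 5 largest gains and the 5 largest losses of cover were taken. All 70 held a deposited peak in both libraries, and in 68 the smaller deposited cover was at least 50% of the larger. On chrUn_gl000220, the window from 120001 to 130000 held 5073 bp and 5174 bp of strongest peaks in parental 2 h and 4 h, against 1018 bp in parental control. All deposited peaks covered 5073 bp and 5174 bp there in parental 2 h and 4 h, against 6215 bp in parental control. The knockout held 6229 bp, 7283 bp and 663 bp of strongest peaks in control, 2 h and 4 h, and 6229 bp, 7283 bp and 6438 bp of deposited ones. The libraries differed there in which peaks were among the 30000, more than in where peaks were deposited.

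Some copies crossed the limit together. Windows on chr6_qbl_hap6 (3070001 to 3080000) and chr6_cox_hap2 (3290001 to 3300000) held 0 bp of strongest peaks in parental 2 h, against 3668 bp and 3667 bp in parental control. The chromosome 6 window that corresponds, 31780001 to 31790000, also held 0 bp in parental 2 h, against 3668 bp in parental control. Its deposited peaks covered 4153 bp in parental 2 h, against 4428 bp in parental control. Another copy, on chr6_apd_hap1 (3090001 to 3100000), held 55 bp in parental 2 h, against 3407 bp in parental control. In knockout 4 h the chr6_qbl_hap6, chr6_cox_hap2 and chromosome 6 windows were at 0 bp of strongest peaks, but the chr6_apd_hap1 window held 3429 bp. In parental 2 h, 1 site was thus counted several times among the losses of covered length.

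Windows that split the genotypes were few. In the 3 knockout libraries and no parental one, 1 of 1083 contig and haplotype windows was marked, or 0.0923%, against a background of 0.404%. In the 3 parental libraries and no knockout one, 6 were marked, or 0.554%, against a background of 0.474%. The window marked in the knockout was on chrUn_gl000216 from 70001 to 80000, with 660 bp, 501 bp and 376 bp of strongest peaks in knockout control, 2 h and 4 h. Deposited peaks covered 401 bp, 644 bp and 200 bp of it in parental control, 2 h and 4 h. With knockout 4 h left out, 3 windows were marked in the other knockout libraries and no parental one (0.277%, background 1.69%), and 7 in the 3 parental libraries and neither of those (0.646%, background 0.834%). These shares were near or under the background.

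Ranks over a fixed set of regions gave a second view, chosen after the data had been seen. Peaks ranked 1 to 15000 in any library but knockout 4 h were merged into 18598 regions, 580 of them on contigs and haplotypes. A region was called separated where every library of one side ranked it more than 3000 places from every library of the other. Against the 3 parental libraries, 0 of the 580 were stronger in knockout control and 2 h, with a background of 1.62%, and 3 (0.517%) were weaker, with a background of 0.618%. With knockout 4 h included, 0 were stronger (background 0.699%) and 1 was weaker (background 0.403%).

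The region weaker in all 3 knockout libraries lay on chrUn_gl000221 from 79461 to 81644. Its fold was 4.32, 5.12 and 3.21 in knockout control, 2 h and 4 h, against 6.02, 6.19 and 7.01 in parental control, 2 h and 4 h. Every knockout value lay below every parental one. The others were chr6_cox_hap2 from 3614009 to 3614790 and chr6_mann_hap4 from 3172868 to 3174305. At the first, the folds were 4.84 and 4.54 in knockout control and 2 h, against 5.66, 5.75 and 5.79 in parental control, 2 h and 4 h. Its chromosome 6 counterpart had 5.36 and 4.81, against 6.31, 6.36 and 6.06, and was separated too. At the second, the folds were 4.43 and 4.09 in knockout control and 2 h, against 5.21, 4.78 and 5.04 in parental control, 2 h and 4 h. Its chromosome 6 counterpart had 3.85 and 3.98 in knockout control and 2 h, against 4.40, 4.12 and 3.65 in parental control, 2 h and 4 h. These folds overlapped and the counterpart was not separated.

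Camptothecin in parental cells was set against parental control, knockout control and knockout 2 h together. Of the 580 regions, 7 (1.21%) were stronger in both treated parental libraries, with a background of 0.376%, and 2 (0.345%) were weaker, with a background of 0.419%. Of the 7, 6 lay on chromosome 6 haplotypes, and chr6_cox_hap2 from 2151971 to 2153394 and chr6_mann_hap4 from 1987841 to 1989424 were copies of 1 place. That place had paired peaks on 7 haplotypes, and only these 2 copies were called. The folds of this chr6_cox_hap2 region were 4.91 and 6.76 in parental 2 h and 4 h, against 3.60 in parental control and 4.02 and 4.15 in knockout control and 2 h. The chromosome 6 counterpart, from 30639770 to 30641193, had 4.52 and 5.59 in parental 2 h and 4 h, against 4.28 in parental control and 4.08 and 3.98 in knockout control and 2 h. That chromosome 6 place moved the same way by less and did not pass the gap.

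None of the counterparts of the 6 stronger haplotype regions was separated on chromosome 6, although 5 of 6 had ranks that did not overlap between the sides. Knockout 4 h was not part of this grouping, and its fold at the chr6_cox_hap2 region was 3.67. Because copies of 1 site enter several times, the count of 7 is not a count of independent sites.

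The weaker regions, chr6_dbb_hap3 from 4116269 to 4116779 and chr6_apd_hap1 from 4121944 to 4122451, were also copies of 1 place. That place had paired peaks on 7 haplotypes, and only these 2 copies were called. The chr6_dbb_hap3 folds were 3.82 and 3.68 in parental 2 h and 4 h, against 6.27 in parental control and 6.57 and 7.33 in knockout control and 2 h. The chromosome 6 counterpart, from 32834882 to 32835392, had 4.84 and 5.23 in parental 2 h and 4 h, against 5.37 in parental control and 7.46 and 7.59 in knockout control and 2 h. There the treated and untreated parental ranks overlapped, at 14010 and 13201 in parental 2 h and 4 h, against 13315 in parental control. The drop in fold against parental control was smaller on chromosome 6 than on chr6_dbb_hap3. In knockout 4 h the fold was 3.39 on chr6_dbb_hap3 and 3.40 on chromosome 6.

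**Figure D5:**
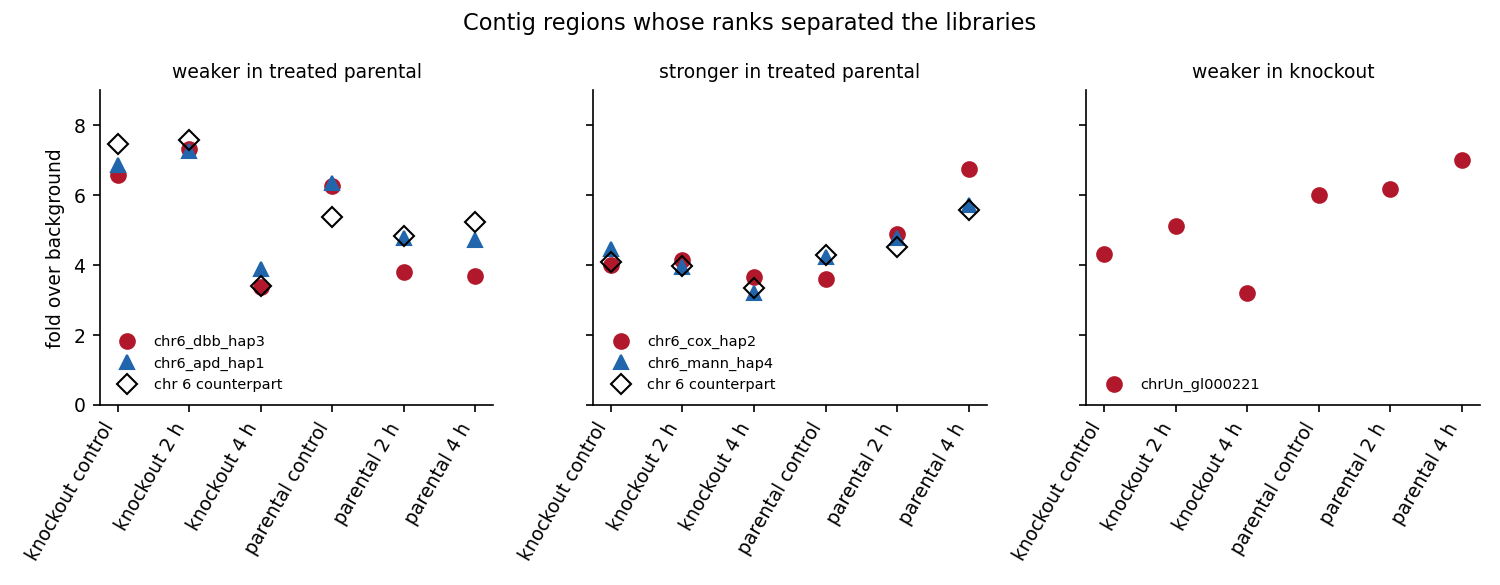
Fold (vertical axis) by library (horizontal axis) at 3 places where ranks separated the libraries: the 2 called copies weaker in treated parental cells (left), 2 called copies stronger in treated parental cells (middle), and the chrUn_gl000221 region weaker in the knockout (right). Copies on other haplotypes that were not called are not drawn. Filled symbols are contig or haplotype peaks and open diamonds their chromosome 6 counterpart, which at the left has 4.84 and 5.23 in parental 2 h and 4 h, against 5.37 in parental control.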

How the data were processed

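Per the labels, ChIP-seq for H3K27ac gave 1 library in each of 6 groups. The authors deposited 1 broad peak list per library on hg19. MACS2 2.1.2 and BWA 0.7.17 are named in the submitters' processing notes, which also list Picard 2.9.2, SAMtools 1.8, Trimmomatic 0.39 and Trim Galore 0.6.2. Settings are not given, and the control sample of the peak calls is not given in the sources used here. The deposited fold is the authors' ratio over local background, the −log10 p and −log10 q are the authors' deposited values per peak, and the deposited score was used only as a check of the q column. Depth is unknown. Folds and p describe and rank peaks within a list.

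Coordinates are 1-based. Peaks were read with Python 3.11.15 and pandas 2.3.3. The 30000 smallest p of each list are called the strongest peaks, and 10 kb windows were marked at 1 bp. Libraries were the units of exact two-sided sign-flip permutation tests, with Benjamini-Hochberg adjustment, and p-values there reflect the spread between these 6 libraries. Counts between groups have no test. Haplotype peaks were paired in order with chromosome 6 peaks along the most frequent offset, found in 1 kb bins, allowing 200000 bp around it. A pair whose offset changed by more than 500 bp from the previous pair was kept but added nothing to the score. The window, offset and rank steps were tested on simulated data.

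Regions and windows were named by rule: the 10 contig regions with the best mean rank, the 5 largest gains and losses of covered length per comparison, the sequences with most peaks, each haplotype and each sequence with a peak among the 5000 smallest p. The report describes only some of those. Regions outside this rule (the other chrUn_gl000220 regions, the genotype windows, the separated regions and the chromosome 6 pairs) were chosen after their values were seen. The members and lists were chosen with earlier results of these data known. Genes and sequence letters on hg19 were not analysed here.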

Additional observations from a re-analysis of the deposited data

Results flagged for a closer look

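Within the 30000 strongest peaks, the contig and haplotype share changed with camptothecin in opposite directions in the knockout and in parental cells. Each change is a difference of 1 library from 1 control, and the difference between genotypes was not tested. For all contigs and haplotypes the share of the 30000 strongest peaks changed by 0.10 percentage points in the knockout after 2 h, against -0.05 in parental cells, and by -0.31 points in the knockout after 4 h, against 0.02 in parental cells. For the haplotypes alone the change was 0.15 points in the knockout after 2 h, against -0.07 in parental cells, and -0.16 points in the knockout after 4 h, against 0.03 in parental cells. The parental changes were small, with 821, 806 and 828 contig and haplotype peaks in control, 2 h and 4 h. The opposite signs were not seen in other lists. The contig and haplotype share of all deposited peaks rose in both genotypes. The rise was 0.042 points in the knockout after 2 h, against 0.0755 in parental cells. After 4 h it was 0.188, against 0.109. The share among peaks chosen by q, given below, also rose in both. The 4 h values rest on the knockout 4 h library, in which 50.6% of the contig and haplotype peaks had the smallest width, and its part in the result was not tested.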

How the results depend on the processing

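The first 4 comparisons with the chromosomes kept their direction without each library in turn. The fold difference then ranged from 0.0848 to 0.112, the width difference from 164 to 214 bp, the difference in the median percentile of p within a list from 9.19 to 11.8 and the difference in the share among the strongest from 11.1 to 13.4 points, and 5 libraries cannot give a p under 0.0625. The fold difference turned to -0.070 in the 30000 strongest peaks and to -0.45 among peaks of −log10 q 5 or more, and the cause was not tested. The width difference passed the unadjusted 0.05 at 275 bp in the 30000 strongest peaks and at 145 bp for unplaced contigs alone. The contig and haplotype share of peaks of −log10 q 5 or more was 3.13, 3.16 and 3.26% in knockout control, 2 h and 4 h, and 3.35, 3.44 and 3.47% in parental control, 2 h and 4 h. Among the 30000 strongest it was 2.57, 2.67 and 2.26%, and 2.74, 2.69 and 2.76%.

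The percent of windows gained or lost on contigs and haplotypes minus that over all sequences stayed below 0 under each alternative. With all deposited peaks it was -5.96 and -6.51 points in parental 2 h and 4 h against control, -6.80 and -2.14 in knockout 2 h and 4 h against control, and -8.20, -7.32 and -8.03 in knockout against parental control, 2 h and 4 h. For peaks of −log10 q 5 or more the same comparisons gave -2.77 and -2.22, -5.26 and -7.60, and -4.30, -8.38 and -5.16 points. With at least 500 bp covered, the values that moved beyond the counting interval were -5.53 and -7.55 in parental cells, -7.76 in knockout 2 h against control, and -6.23 and -9.63 in knockout against parental control and 2 h. With all deposited peaks 60.1% of contig and haplotype peaks were shared, against 51.2% on the chromosomes.

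Rank gaps were added after seeing the data. Above 1500 places, 3 regions (0.517%, against 4.59% over all sequences) were stronger and 17 (2.93%, against 2.62%) weaker in knockout control and 2 h. With knockout 4 h, 3 were stronger (0.517%, against 2.31%) and 3 weaker (0.517%, against 1.68%). In treated parental cells, 32 were stronger (5.52%, against 2.53%) and 3 weaker (0.517%, against 2.68%). Above 6000 places all of these counts on contigs and haplotypes were 0, against 0 to 0.231% over all sequences. Shares that low leave little room for any count among the 580 regions. No paired analysis was possible because each group has 1 library, so the groups share no 2 replicate numbers. The pairing of genotypes by time stands beside the shares of each list. The lists give no depth, which limits what weak peaks can show.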
